A study of Mus musculus with 10 samples.

Results

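The genes of fatty acid oxidation and ketogenesis were followed in the livers of ethanol-fed mice labelled NIKhKO or NIKflox. The set was a list of 33 names, covering mitochondrial and peroxisomal beta-oxidation, ketone body metabolism, the nuclear receptor PPARA and its targets. Each name matched 1 row of the deposited table of 55401 genes, and all 33 were among the 12731 genes tested. RNA came from 5 livers labelled NIKhKO and 5 labelled NIKflox. Map3k14 is the gene of NIK, a kinase upstream of noncanonical NF-kB signalling. The study's text writes the genotypes as NIKHKO and NIKF/F, and its title speaks of hepatic NIK. Both genotypes had received 5% ethanol in a Lieber-DeCarli liquid diet over 4 weeks, so no value here compares ethanol with its absence. The sources used here give no sex, age, strain, Cre driver or deleted exon, and do not say whether livers were pooled. No label ties the replicates to separate litters or cages, so p-values reflect the spread among these 10 livers alone, which may be technical.

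Beta-oxidation shortens fatty acids from the carboxyl end. A fatty acid is first joined to coenzyme A, and long chains then enter mitochondria as carnitine esters. In each round an acyl-CoA dehydrogenase, a hydratase, a hydroxyacyl-CoA dehydrogenase and a thiolase remove acetyl-CoA, and the electrons pass through ETF to the respiratory chain. Peroxisomes run a parallel pathway for very long chains and dicarboxylic acids. The liver turns acetyl-CoA into ketone bodies in fasting. PPARA, activated by fatty acids, pairs with the retinoid X receptor and binds DNA elements made of direct repeats with 1 spacer base, called DR1, near many of these genes. Oxidation of ethanol in the liver raises the ratio of NADH to NAD+, a state known to slow beta-oxidation.

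Some of the genes share sequence with other annotated entries. Acaa1a and Acaa1b encode peroxisomal 3-ketoacyl-CoA thiolases and lie near each other on chromosome 9. Their coding sequences, from the GENCODE M21 transcripts on GRCm38, were both 1272 bases without the stop codon, and 1228 of these were identical (96.5%). The longest stretch with no difference ran over 327 bases, from coding base 748 to 1074. The first 120 coding bases of each are shown, with the 4 bases that differ in capitals. They span chr9:119341515-119341634 on the plus strand for Acaa1a and chr9:119156875-119156994 on the minus strand for Acaa1b.
Acaa1a: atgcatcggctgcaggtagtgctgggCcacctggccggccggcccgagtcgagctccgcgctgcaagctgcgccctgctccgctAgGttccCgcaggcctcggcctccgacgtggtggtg
Acaa1b: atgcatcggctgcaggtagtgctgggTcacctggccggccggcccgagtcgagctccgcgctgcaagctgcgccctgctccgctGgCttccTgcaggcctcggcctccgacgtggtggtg
Of all 50-base words in the annotated transcripts, 12.9% of those of Acaa1a and 30.5% of those of Acaa1b also occurred in another gene, chiefly in each other. The share was higher for Cpt1b, at 78.6%, and for Etfb, at 44.8%, each with an overlapping annotated entry. It was 19.7% for Hadhb, mostly with the entry Gm13910. For the other 28 genes it was at most 6.8%. Levels of these 5 genes depend on how the authors' counting divided such reads and are uncertain.

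The alpha and beta subunits of the mitochondrial trifunctional protein, which carries out the last steps on long chains, are encoded head to head by Hadha and Hadhb. Their RefSeq start sites on GRCm38.p6 lie 273 bases apart. The 300-base window around the Hadhb start (chr5:30155003-30155302, plus strand) is shown because it covers most of the sequence between the starts, and capitals mark the 228 bases that are also in the window of Hadha. The RefSeq start of Hadha itself lies outside it, while the deposited span of Hadha, on the minus strand, begins at 30155162, inside it.
Hadhb: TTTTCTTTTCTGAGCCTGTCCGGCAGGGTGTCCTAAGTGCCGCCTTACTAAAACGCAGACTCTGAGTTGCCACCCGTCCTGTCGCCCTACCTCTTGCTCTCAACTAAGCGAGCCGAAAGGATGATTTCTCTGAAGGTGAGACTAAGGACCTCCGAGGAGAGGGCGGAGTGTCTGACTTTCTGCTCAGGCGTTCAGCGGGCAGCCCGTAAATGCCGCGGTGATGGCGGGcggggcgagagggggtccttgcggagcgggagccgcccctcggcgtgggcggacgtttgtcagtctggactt
A DR1-like motif, a direct repeat of AGGTCA with any 1 base between the copies and at most 2 mismatches, read on either strand, was searched in windows from 250 bases before to 50 bases after each RefSeq start. Of the 26 genes of the set with a window, 3 held it (11.5%), against 1190 of 27025 genes with a window in all (4.40%). The 3 matches are shown in capitals with their flanks, each read 5′ to 3′ on the strand of its gene. That of Etfa (chr9:55512288-55512340, minus strand) begins 77 bases upstream of the start and reads as the reverse complement of the motif. That of Slc25a20 (chr9:108662122-108662174, plus strand) begins 6 bases downstream of the start, and that of Creb3l3 (chr10:81092768-81092820, minus strand) 209 bases upstream. The Creb3l3 match lies inside the deposited span of that gene (81084324 to 81098874), so the RefSeq start used is not the deposited 5′ end.
Etfa: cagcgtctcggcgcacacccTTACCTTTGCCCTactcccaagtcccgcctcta
Slc25a20: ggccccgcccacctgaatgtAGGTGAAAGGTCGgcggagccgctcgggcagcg
Creb3l3: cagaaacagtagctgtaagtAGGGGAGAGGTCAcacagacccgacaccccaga
A match is a description of the letters in these windows, and binding was not measured.

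Total estimated counts ran from 53225028 to 64321202 in NIKhKO and from 47161869 to 65052525 in NIKflox libraries. Map3k14 was read at 0.347, 0.361, 0.443, 0.389 and 0.373 FPKM in the NIKhKO livers, against 0.553, 0.510, 0.585, 0.899 and 0.483 FPKM in the NIKflox livers, with no overlap between the genotypes (exact two-sided permutation p = 0.0079, the smallest that 5 against 5 libraries allow). FPKM values are scaled to transcript length and library size. In edgeR's quasi-likelihood test its log2 fold change was -0.59 (SE 0.19, adjusted p = 0.33 over all genes). All 7 hepatocyte markers were present, with a summed level of 40820 to 47924 FPKM in NIKhKO and 37144 to 52088 FPKM in NIKflox livers. NIKflox 2 and NIKflox 4 stood apart from the other libraries in markers of other tissues. The 10 heart muscle markers summed to 6.87 and 31.5 FPKM there, against 0.118 to 0.959 FPKM in NIKhKO and 0.123 to 0.713 FPKM in the other NIKflox livers. The 6 adipose markers summed to 22.5 FPKM in NIKflox 2, against at most 2.18 FPKM in any other library, and the 5 skeletal muscle markers to 12.0 FPKM there, against at most 3.18 FPKM. Summed cholangiocyte markers lay at 15.8 to 26.9 FPKM in NIKhKO and 26.1 to 46.2 FPKM in NIKflox livers, and B cell markers at 5.19 to 14.1 FPKM and 3.58 to 6.54 FPKM, in the same order, with 0 of these markers called; their part in the results was not tested. Results are given with and without NIKflox 2 and 4 where these libraries moved them.

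None of the 33 genes differed between NIKhKO and NIKflox livers when called with edgeR's quasi-likelihood test at adjusted p-values below 0.05, a threshold that 0.0236% of all 12731 genes passed. At an unadjusted p below 0.05 there were 3 of 33 (9.09%), namely Crat, Hadh and Acaa1a, against 10% of all genes (1273). Log2 fold changes, always NIKhKO minus NIKflox, were positive for 18 genes and negative for 15, with a median of 0.03, and 48.2% of all genes were positive with a median of -0.01. On the FPKM scale 14 of the 33 had the higher mean in NIKhKO. In limma on log2(FPKM + 1) the median of all genes was -0.05 and that of the 33 was -0.03. With DESeq2, 1 of the 33 passed, Crat, against 1.63% of all genes, and with limma on log2(FPKM + 1) 0 passed, as for 0 of all genes, and 2 had an unadjusted p below 0.05 (10.8% of all genes). In a bulk liver, less RNA per hepatocyte and fewer hepatocytes cannot be told apart.

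**Figure D1:**
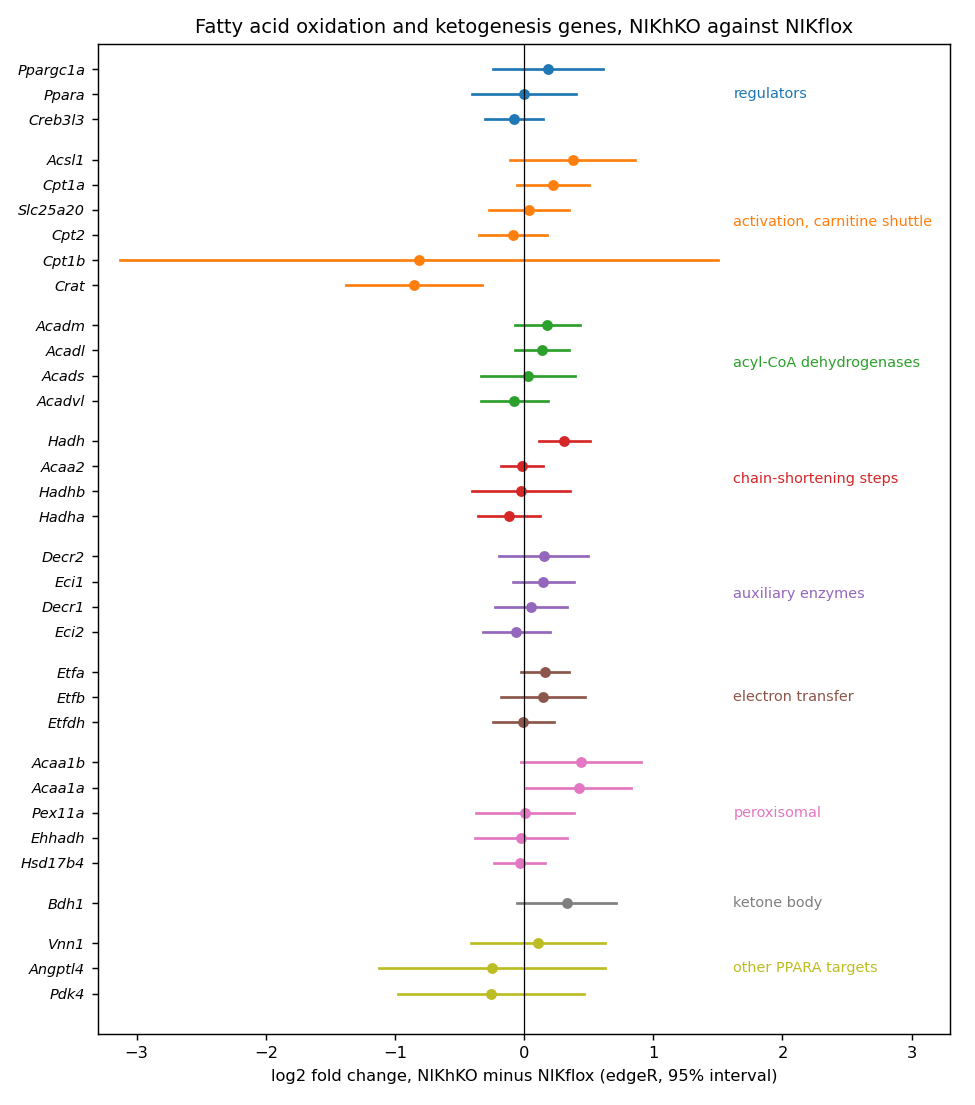
Log2 fold change (NIKhKO minus NIKflox, edgeR) of each of the 33 genes on the horizontal axis, with its 95% interval as a line, grouped and coloured by role. The intervals of Crat, Hadh and Acaa1a leave out 0, and that of Cpt1b is the widest, from -3.13 to 1.5.

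The precision was fair for most of the set. The 95% interval of the log2 fold change lay within a 1.5-fold change in either direction for 23 of the 33 genes. The other 10, whose intervals reached beyond 1.5-fold, were Ppargc1a, Acsl1, Cpt1b, Crat, Acaa1a, Acaa1b, Bdh1, Pdk4, Vnn1 and Angptl4. The median standard error was 0.15 on the log2 scale for the set and 0.16 for all genes. Coefficients of variation had a median of 15.5% among NIKhKO and 20.3% among NIKflox livers for the set, against 17.4% and 18.2% for all genes tested, in the same order. No gene of the set had ranges without overlap between the genotypes, while 2.20% of all genes did.

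Of the 3 regulators, 1 had a positive and 2 a negative log2 fold change, and 0 were called. Ppara itself (ENSMUSG00000022383, chromosome 15, 85734983 to 85802819 on GRCm38) read 6.98, 5.42, 6.47, 4.05 and 5.47 FPKM in NIKhKO livers and 3.64, 6.69, 5.90, 6.93 and 6.67 FPKM in NIKflox livers. The lowest library of each genotype, NIKhKO 4 and NIKflox 1, set the spread, and the ranges overlapped nearly whole. Its log2 fold change was -0.00 (SE 0.18, 95% interval -0.40 to 0.40, edgeR adjusted p = 0.999). Ppargc1a, which encodes the coactivator PGC-1 alpha, had 1.02, 1.02, 1.26, 1.52 and 1.26 FPKM in NIKhKO livers against 0.930, 0.914, 1.55, 0.909 and 1.31 FPKM in NIKflox livers, and its log2 fold change of 0.18 (SE 0.19) did not pass. Creb3l3 encodes CREBH, a membrane-bound liver transcription factor that acts with PPARA in fasting. It averaged 78.4 ± 5.57 FPKM in NIKhKO and 86.3 ± 13.5 FPKM in NIKflox livers (SD, n = 5 each). Its log2 fold change was -0.08.

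The gene of the set with the smallest p was Crat. It encodes carnitine acetyltransferase, which moves acetyl and short acyl groups between coenzyme A and carnitine. Crat (ENSMUSG00000026853, chromosome 2, 30400471 to 30415771 on GRCm38) read 7.17, 10.3, 6.17, 5.14 and 5.79 FPKM in NIKhKO livers against 13.6, 14.9, 6.50, 16.8 and 13.0 FPKM in NIKflox livers. NIKflox 3 lay among the NIKhKO livers, and the other 4 NIKflox livers lay above all 5 NIKhKO livers. The means were 6.92 ± 2.04 FPKM and 13.0 ± 3.91 FPKM, in that order (SD, n = 5 each). Its log2 fold change was -0.85 (SE 0.24, 95% interval -1.38 to -0.33), or 0.554-fold, with an edgeR adjusted p of 0.27 over all genes. DESeq2 gave -0.85 with an adjusted p of 0.039. Without NIKflox 2 and 4 it was -0.64 (edgeR adjusted p = 0.59), and with each library left out in turn it stayed between -1.02 and -0.76. Exons of Crat overlap those of Dolpp1 on the opposite strand over 59 bases and those of Gm16323 over 411 bases, and the sources used here do not say whether counting used strand.

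**Figure D2:**
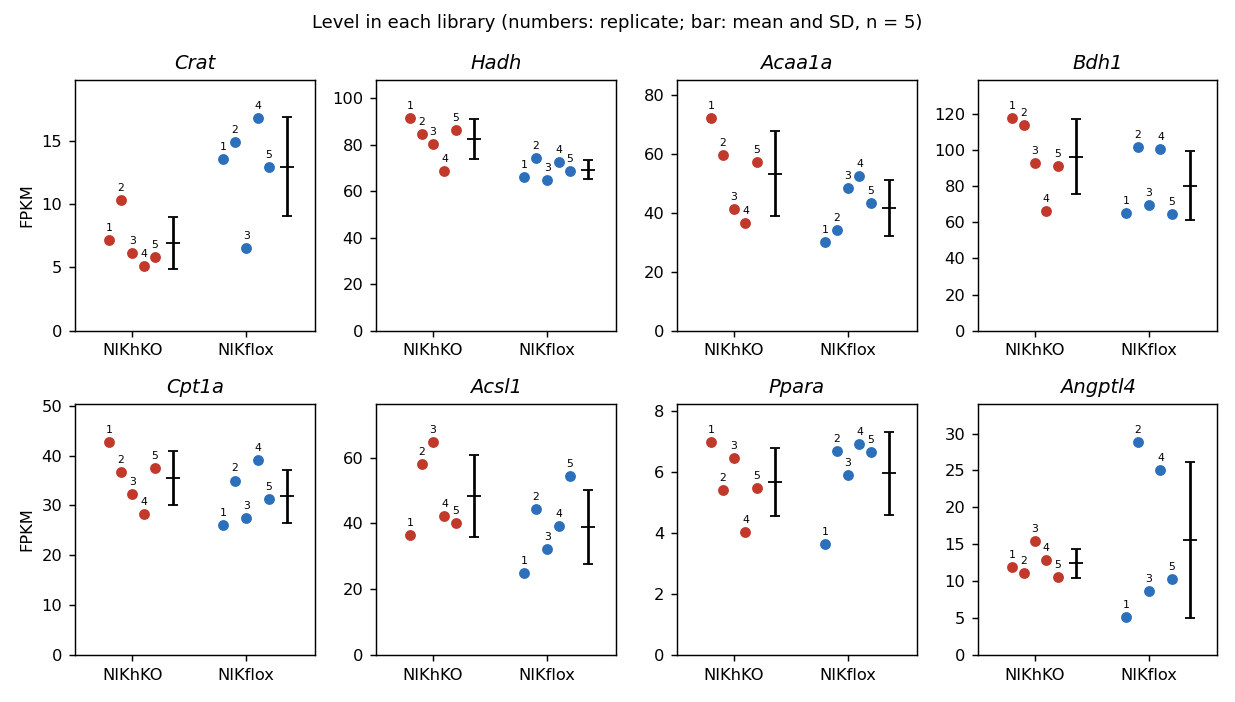
FPKM (linear axis from 0) of 8 genes in each of the 5 NIKhKO livers (red, left) and the 5 NIKflox livers (blue, right), numbered by replicate, with mean and SD as black bars. Crat of NIKflox 3, at 6.50 FPKM, lies among the NIKhKO livers, and Angptl4 is highest in NIKflox 2 and 4, at 28.8 and 25.0 FPKM.

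With Crat, the 6 genes of activation and the carnitine shuttle had 3 positive and 3 negative log2 fold changes, and 0 were called. Acsl1, the main long-chain acyl-CoA synthetase of liver, read 36.5, 58.1, 64.6, 42.3 and 40.1 FPKM in NIKhKO livers against 25.0, 44.2, 32.2, 39.3 and 54.4 FPKM in NIKflox livers. NIKhKO 2 and 3 lay above every NIKflox liver, and the log2 fold change was 0.38 (SE 0.22, edgeR adjusted p = 0.63). Cpt1a, the liver form of carnitine palmitoyltransferase I and the point at which malonyl-CoA holds back oxidation, read 42.7, 36.7, 32.3, 28.3 and 37.6 FPKM in NIKhKO livers and 26.1, 35.0, 27.5, 39.2 and 31.2 FPKM in NIKflox livers. Its log2 fold change was 0.22 (SE 0.13, edgeR adjusted p = 0.61). The carnitine-acylcarnitine translocase Slc25a20 averaged 23.7 ± 4.17 FPKM in NIKhKO and 24.2 ± 5.43 FPKM in NIKflox livers. Cpt2, which frees the acyl group from carnitine in the matrix, averaged 55.6 ± 7.99 FPKM and 61.6 ± 8.61 FPKM (SD, n = 5 each, NIKhKO first). Their log2 fold changes were 0.03 and -0.09.

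Cpt1b, the muscle form of carnitine palmitoyltransferase I, was barely present and did not follow the genotypes. It read 0.0636, 0.0792, 1.02, 0.0608 and 0.866 FPKM in NIKhKO livers and 0.0369, 2.09, 0.105, 0.676 and 1.02 FPKM in NIKflox livers, from 7 to 468 estimated counts per library. Its exons share 2744 bases with Gm44502 (chromosome 15, 89416405 to 89429696), an annotated entry on the same strand. Gm44502 was listed at 0 counts in NIKhKO 3 and 5 and in NIKflox 2 and 5, the 4 libraries with the highest Cpt1b values. Gm44502 read 2.46, 2.73 and 3.05 FPKM in NIKhKO 1, 2 and 4, and 2.83, 3.24 and 3.97 FPKM in NIKflox 1, 3 and 4. The heart muscle markers were at 0.959 FPKM or below in 3 of these 4 libraries (NIKhKO 3, NIKhKO 5 and NIKflox 5). They summed to 6.87 FPKM in NIKflox 2, which had the highest Cpt1b value, and to 31.5 FPKM in NIKflox 4, where Cpt1b read 0.676 FPKM. The 5 skeletal muscle markers summed to 12.0 FPKM in NIKflox 2, 1.98 FPKM in NIKhKO 5, 0.711 FPKM in NIKflox 5 and 0.108 FPKM in NIKhKO 3. In NIKflox 1, with the lowest Cpt1b value, they summed to 2.62 FPKM. The 2 brown adipose markers summed to 2.29 FPKM in NIKflox 2, 1.49 FPKM in NIKhKO 5 and 0.0002 FPKM in NIKhKO 3 and NIKflox 5. The part of heart muscle, skeletal muscle or brown adipose tissue in the Cpt1b values was not tested. With the counts of both entries summed, the log2 fold change was -0.35 (SE 0.49) in place of -0.81 (SE 1.05). The span of Gm44502 also overlaps that of Chkb (89426360 to 89429899, same strand), which averaged 7.62 FPKM over the 10 libraries. Whether the sum holds reads of Chkb was not tested, so it is not a better measure of Cpt1b.

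Among the 4 acyl-CoA dehydrogenases, named for the chain length they act on, 3 log2 fold changes were positive and 0 were called. The medium-chain enzyme Acadm had the smallest p, with 112, 89.9, 104, 86.9 and 90.1 FPKM in NIKhKO livers against 79.7, 91.1, 82.5, 115 and 79.5 FPKM in NIKflox livers. NIKflox 4 held the highest FPKM of all 10 libraries, and the log2 fold change was 0.18 (SE 0.12, edgeR adjusted p = 0.67). The long-chain enzyme Acadl was nearly constant among NIKhKO livers, at 139.9 ± 1.27 FPKM, against 133 ± 15.5 FPKM in NIKflox livers (SD, n = 5 each), with a log2 fold change of 0.14. The very-long-chain enzyme Acadvl and the short-chain enzyme Acads had log2 fold changes of -0.08 and 0.03.

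Hadh, the 3-hydroxyacyl-CoA dehydrogenase of medium and short chains, was the other gene of the set whose values came near to separating. Hadh (ENSMUSG00000027984, chromosome 3, 131233419 to 131272101) read 91.5, 84.7, 80.1, 68.8 and 86.4 FPKM in NIKhKO livers against 66.0, 74.2, 64.7, 72.5 and 68.8 FPKM in NIKflox livers. All NIKhKO livers but NIKhKO 4 lay above every NIKflox liver. The log2 fold change was 0.31 (SE 0.09, 95% interval 0.12 to 0.51), or 1.24-fold, with an edgeR adjusted p of 0.29. It stayed between 0.28 and 0.37 with each library left out in turn and was 0.36 without NIKflox 2 and 4. Among the trifunctional protein subunits, Hadha averaged 38.4 ± 3.41 FPKM in NIKhKO and 43.6 ± 6.76 FPKM in NIKflox livers, and Hadhb 17.9 ± 3.32 FPKM and 19.1 ± 4.82 FPKM, in the same order (SD, n = 5 each). Hadha was 1.82 to 2.44 times Hadhb by FPKM in NIKhKO livers and 2.06 to 2.61 times in NIKflox livers. The thiolase Acaa2, which ends the mitochondrial round, was the steadiest gene of the set over the 10 libraries, with a highest value 1.22 times its lowest. It averaged 460.1 ± 42.1 FPKM in NIKhKO and 486 ± 19.3 FPKM in NIKflox livers, with a log2 fold change of -0.02 (95% interval -0.18 to 0.14).

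Auxiliary enzymes move or remove double bonds of unsaturated fatty acids so that the round can go on. Their 4 genes had log2 fold changes from -0.06 to 0.15 and 0 were called. Eci1, a mitochondrial enoyl-CoA isomerase, had the smallest p, with 67.6, 70.4, 58.5, 47.8 and 68.7 FPKM in NIKhKO livers and 49.95, 61.5, 60.5, 67.9 and 55.3 FPKM in NIKflox livers. Its ranges overlapped widely, at a log2 fold change of 0.15 (SE 0.11, edgeR adjusted p = 0.72). Eci2, a further enoyl-CoA isomerase, Decr1, the mitochondrial 2,4-dienoyl-CoA reductase, and Decr2, its peroxisomal counterpart, had log2 fold changes of -0.06, 0.05 and 0.15.

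The electron transfer flavoprotein takes electrons from the acyl-CoA dehydrogenases, and its oxidoreductase, encoded by Etfdh, passes them to ubiquinone. The alpha subunit gene Etfa read 202, 203, 159, 153 and 165 FPKM in NIKhKO livers against 156, 158, 169, 173 and 169 FPKM in NIKflox livers. NIKhKO 1 and 2 lay above every NIKflox liver and NIKhKO 4 below, with a log2 fold change of 0.16 (SE 0.08, edgeR adjusted p = 0.58). The beta subunit gene Etfb had the same highest libraries, at 220.1 and 236 FPKM in NIKhKO 1 and 2, and a log2 fold change of 0.15. Etfdh was at -0.01.

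In the peroxisomal branch the thiolase pair had the largest positive values of the set, and the other 3 genes lay near 0. Acaa1b, the most abundant transcript of the 33, read 906, 1104, 731, 535 and 904 FPKM in NIKhKO livers against 386, 558, 719, 913 and 658 FPKM in NIKflox livers. Acaa1a read 72.1, 59.4, 41.3, 36.4 and 57.1 FPKM in NIKhKO livers against 30.0, 34.1, 48.3, 52.5 and 43.2 FPKM in NIKflox livers. Both were lowest in NIKflox 1, and Acaa1b was at 12.6 to 18.6 times Acaa1a in NIKhKO and 12.9 to 17.4 times in NIKflox livers. The log2 fold changes were 0.44 (SE 0.21, edgeR adjusted p = 0.53) for Acaa1b and 0.42 (SE 0.19, edgeR adjusted p = 0.48) for Acaa1a. With the counts of this near-identical pair summed, the log2 fold change was 0.44 (95% interval -0.01 to 0.89, edgeR adjusted p = 0.52). Ehhadh, the peroxisomal bifunctional enzyme and a strong PPARA target in mouse liver, averaged 129.7 ± 10.5 FPKM in NIKhKO and 139 ± 36.1 FPKM in NIKflox livers (SD, n = 5 each). Ehhadh, Hsd17b4, the D-bifunctional protein, and Pex11a, a factor in peroxisome division, had log2 fold changes of -0.02, -0.03 and 0.00.

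Bdh1, the only enzyme of ketone body interconversion in the set, makes beta-hydroxybutyrate from acetoacetate. It read 118, 114, 93.2, 66.1 and 91.3 FPKM in NIKhKO livers against 65.1, 102, 69.4, 101 and 64.5 FPKM in NIKflox livers. NIKflox 2 and 4 lay between NIKhKO 2 and NIKhKO 3, and the remaining 3 NIKflox livers lay near NIKhKO 4, the lowest NIKhKO liver. The log2 fold change was 0.33 (SE 0.18, edgeR adjusted p = 0.58), and 0.59 without NIKflox 2 and 4 (edgeR adjusted p = 0.41).

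The remaining 3 PPARA targets had 1 positive and 2 negative log2 fold changes, 0 of them called, and apart from Cpt1b they had the highest coefficients of variation among NIKflox livers, at 39.95% for Vnn1, 57.1% for Pdk4 and 68.1% for Angptl4. Angptl4, a secreted inhibitor of lipoprotein lipase, read 12.0, 11.1, 15.4, 12.9 and 10.5 FPKM in NIKhKO livers against 5.08, 28.8, 8.70, 25.0 and 10.3 FPKM in NIKflox livers. NIKflox 2 and 4 were above all NIKhKO livers, and NIKflox 1, 3 and 5 below all of them. Its log2 fold change was -0.25 (SE 0.40) with all libraries and 0.69 (95% interval 0.18 to 1.19, edgeR adjusted p = 0.45) without NIKflox 2 and 4. Vnn1, the pantetheinase vanin 1, followed the same libraries, with 45.5, 35.7, 46.1, 35.0 and 42.6 FPKM in NIKhKO livers against 34.7, 55.7, 26.2, 58.2 and 25.0 FPKM in NIKflox livers. Pdk4, the kinase that shuts off pyruvate dehydrogenase in fasting, read 3.88, 3.49, 5.43, 2.74 and 3.03 FPKM in NIKhKO livers and 3.85, 9.27, 2.74, 3.95 and 3.33 FPKM in NIKflox livers. NIKflox 2 alone was high for Pdk4. NIKflox 2 and 4 are also the libraries with heart muscle markers, and NIKflox 2 also with adipose markers, tissues known to express Pdk4 and Angptl4. The part of other tissues in these values was not tested.

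**Figure D3:**
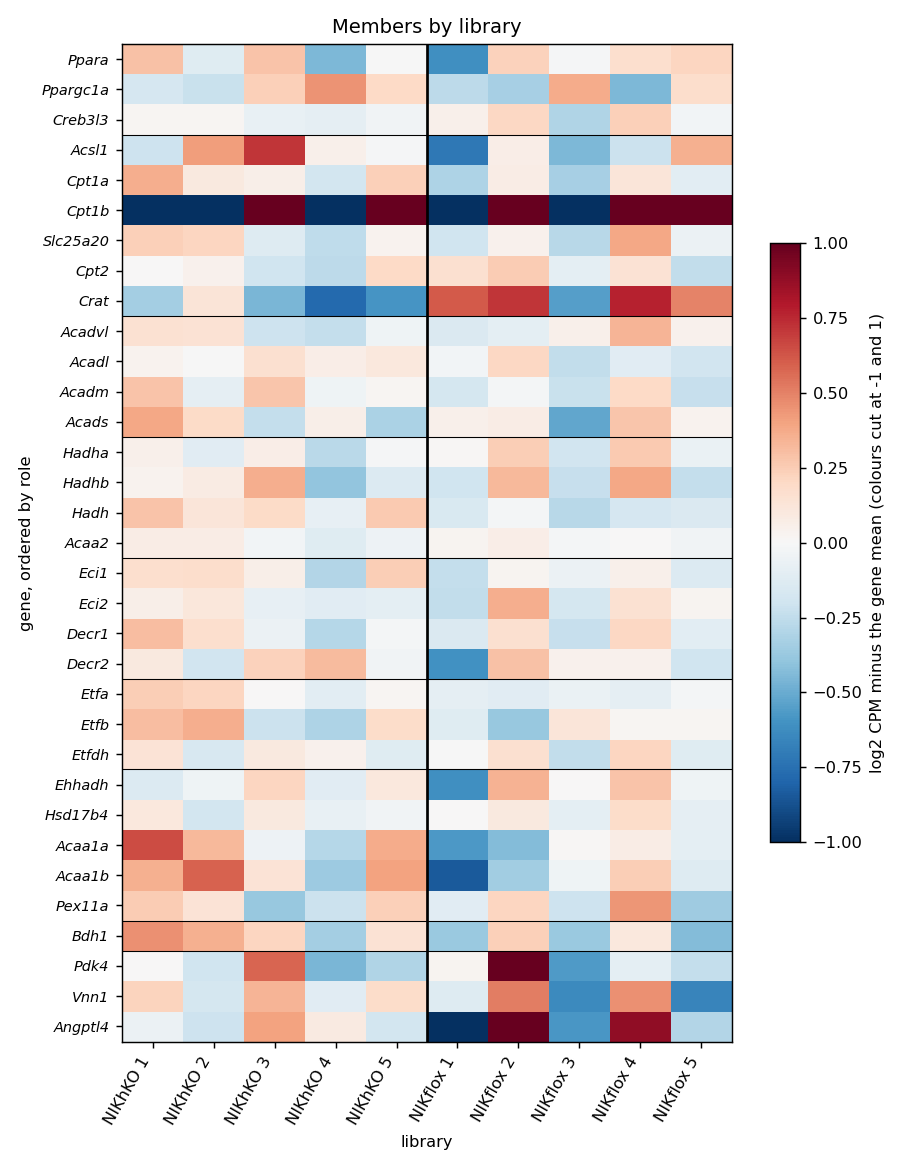
Each gene (rows, ordered by role, horizontal lines between roles) in each library (columns, NIKhKO left and NIKflox right of the line), coloured by log2 CPM minus the gene's mean over the 10 libraries. NIKhKO 1, NIKflox 2 and NIKflox 4 are mostly red (27, 25 and 27 of 33 genes above their mean). NIKhKO 4 and NIKflox 1, 3 and 5 are mostly blue (26, 25, 27 and 24 below). Cpt1b goes past the ends of the colour scale, as do Pdk4 in NIKflox 2 (1.25) and Angptl4 in NIKflox 1 and 2 (-1.26 and 1.20).

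Differences among libraries of 1 genotype were larger than the difference between the genotype means. The median of the 33 centred log2 CPM values (counts scaled to TMM-adjusted library size) was 0.14, 0.09, 0.10, -0.19 and 0.02 in NIKhKO 1 to 5 and -0.15, 0.16, -0.22, 0.18 and -0.10 in NIKflox 1 to 5. The means of these medians were 0.03 ± 0.13 in NIKhKO and -0.03 ± 0.19 in NIKflox (SD, n = 5 each). The corresponding median over all genes tested, taken on log2(CPM + 0.1), lay between -0.00 and 0.02 in every library. TMM scaling itself keeps that median near 0, so it is no contrast to the set. On this CPM scale NIKhKO 1 held the highest value of 10 of the 33 genes, NIKflox 4 of 9 and NIKflox 2 of 8, against 11.6%, 13.8% and 13.3% of all genes tested. NIKhKO 4 held the lowest value of 8 of the 33, NIKflox 1 of 9 and NIKflox 3 of 8, against 8.83%, 9.2% and 7.79% of all genes tested. The counts depended on the scale. By FPKM the highest value lay in NIKhKO 1 for 5 genes, in NIKflox 4 for 15 and in NIKflox 2 for 6, and the lowest in NIKhKO 4 for 9, in NIKflox 1 for 10 and in NIKflox 3 for 6. Summed over the 33 genes, NIKhKO livers had 3142 ± 427 FPKM and NIKflox livers 2948 ± 415 FPKM (SD, n = 5 each), or 0.645 ± 0.115% and 0.628 ± 0.121% of a library's whole FPKM sum. Acaa1b and Acaa2 made up much of that sum, and without them it was 1846 ± 186 FPKM in NIKhKO and 1815 ± 230 FPKM in NIKflox livers.

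**Figure D4:**
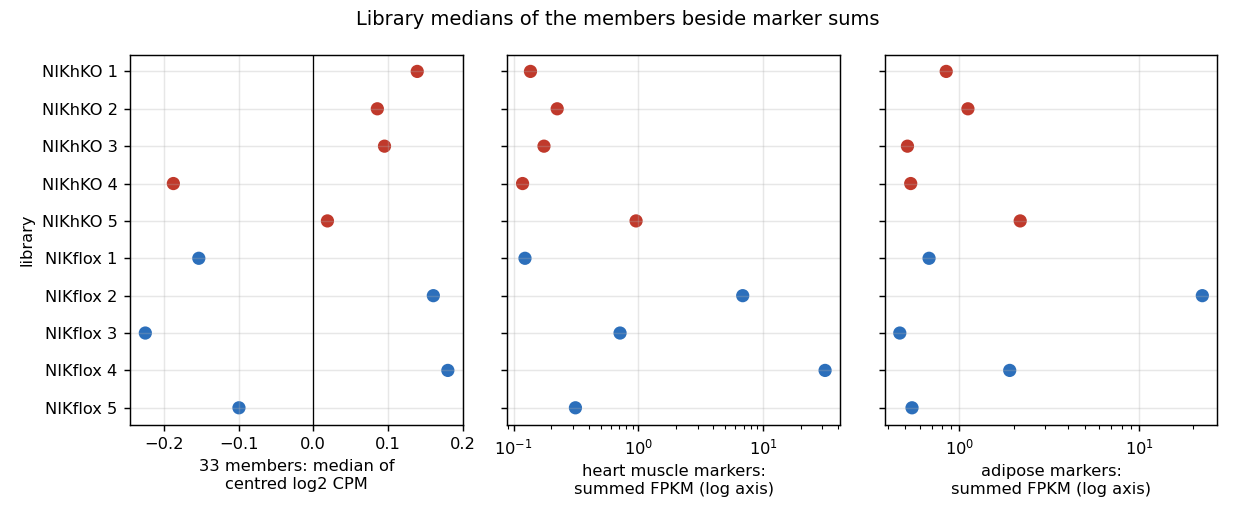
Median of the centred log2 CPM of the 33 genes (left panel), summed FPKM of 10 heart muscle markers (middle, log axis) and of 6 adipose markers (right, log axis) in each library, NIKhKO in red above NIKflox in blue. NIKflox 2 and 4 have the highest medians, 0.16 and 0.18, and the highest heart muscle sums, 6.87 and 31.5 FPKM. NIKhKO 1 comes next, with a median of 0.14 and a heart muscle sum of 0.136 FPKM.

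Without NIKflox 2 and 4, nearly all genes of the set had positive log2 fold changes, and still none was called. These libraries had the highest medians of the set among NIKflox livers (0.16 and 0.18), so leaving them out raises its log2 fold changes. The shares given for this fit follow in part from that choice and are no separate result about the genotypes. In that fit of 5 NIKhKO against 3 NIKflox livers, 31 of 33 log2 fold changes were positive, against 50.6% of all genes, and the median was 0.20, against 0.00 for all genes. An unadjusted p below 0.05 was reached by 9 of 33 (27.3%), against 8.23% of all genes, and 0 were called, against 0.00785% of all genes. These 9 were Acaa1b, Acadl, Acadm, Angptl4, Bdh1, Cpt1a, Hadh and Vnn1, with positive values, and Crat, with a negative one. Crat and Acadvl, at -0.64 and -0.01, were the only negative genes. Leaving out NIKhKO 4, low for much of the set, gave 22 positive values (48.2% of all genes) and a median of 0.09. An unadjusted p below 0.05 was then reached by 8 of 33 (24.2%), against 10.5% of all genes. In that fit 0 were called, against 0.189% of all genes. These shares too follow in part from the choice of a library in which the set was low, and are no separate result. Without NIKflox 1, also low for much of the set, the median was -0.01, and without NIKflox 3 it was -0.02.

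**Figure D5:**
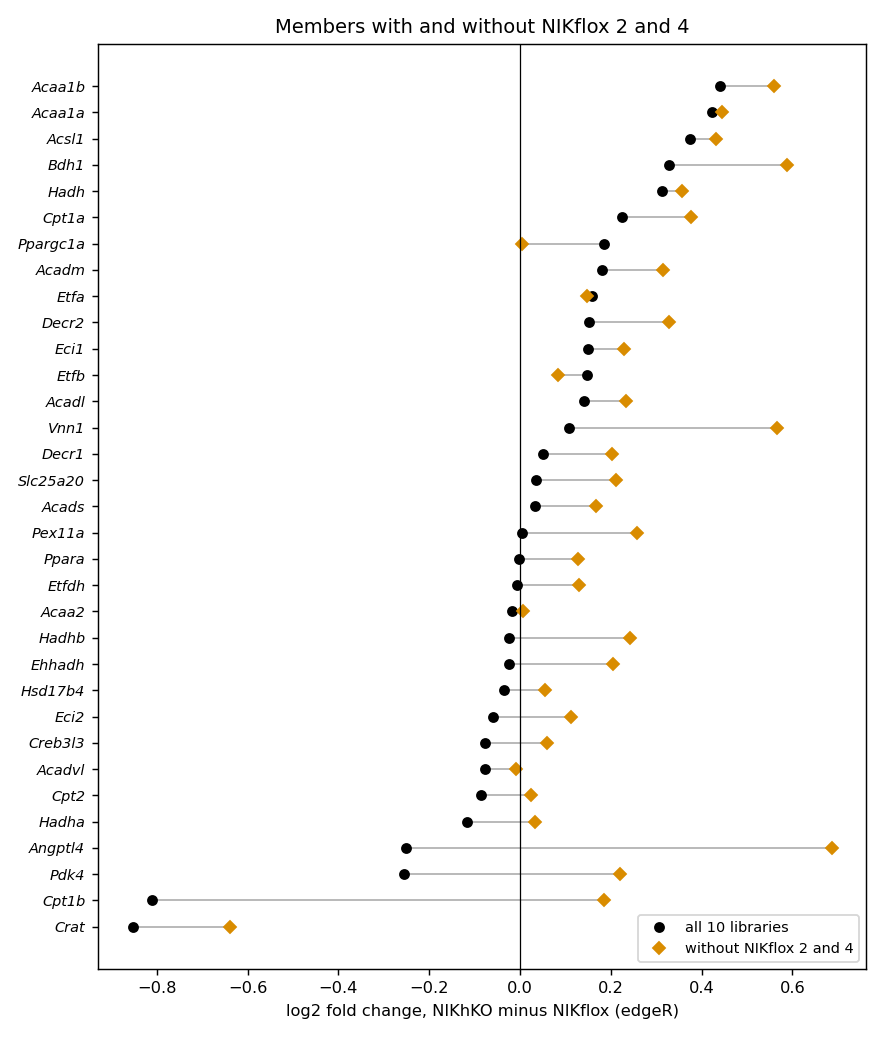
Log2 fold change (NIKhKO minus NIKflox, edgeR) of each of the 33 genes with all 10 libraries (black circles) and without NIKflox 2 and 4 (orange diamonds), ordered by the first. The number of positive values is 18 with all libraries and 31 without those 2, and Angptl4 goes to 0.69, against -0.25 with all libraries.

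Of 48 further genes of the pathway that are not in the set (other oxidases, transporters, peroxins, ketogenic enzymes and PPARA partners and targets), 48 were tested. Positive values numbered 24, negative ones 24, and 0 were called, against 0.0236% of all genes. The median log2 fold change was 0.00. At an unadjusted p below 0.05 there were 9 of 48 (18.8%), against 10% of all genes. The 3 with the smallest p were Acot1, Pecr and Fgf21. Acot1, a cytosolic acyl-CoA thioesterase and PPARA target, read 7.42, 4.34, 5.47, 4.49 and 3.29 FPKM in NIKhKO livers against 8.85, 11.1, 10.9, 15.1 and 7.0 FPKM in NIKflox livers. Only NIKhKO 1 reached into the NIKflox range, and the log2 fold change was -1.01 (SE 0.23, edgeR adjusted p = 0.23). Pecr, a peroxisomal trans-2-enoyl-CoA reductase, read 142, 165, 124, 131 and 137 FPKM in NIKhKO livers against 110, 87.6, 120, 105 and 126 FPKM in NIKflox livers, a log2 fold change of 0.41 (SE 0.11, edgeR adjusted p = 0.26). Fgf21, a fasting hormone of liver induced by PPARA, read 2.47, 2.77, 3.40, 2.75 and 2.64 FPKM in NIKhKO livers against 2.98, 16.4, 4.19, 18.1 and 4.42 FPKM in NIKflox livers. Like Angptl4 it was high in NIKflox 2 and 4, and its log2 fold change was -1.63 (SE 0.48, edgeR adjusted p = 0.29) with all libraries and -0.40 without those 2. DESeq2 called these 3 of the 48 genes and no others, against 1.63% of all genes. Its adjusted p-values were 0.0050 for Acot1, 0.036 for Pecr and 0.025 for Fgf21.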

How the data were processed

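Liver RNA, captured on oligo(dT) beads per the labels' protocols, was measured in 5 NIKhKO and 5 NIKflox libraries. Per the submitters' processing notes, cutadapt 1.9, HISAT2 2.0.4, StringTie 1.3.4d and edgeR were used, with no roles given. The build in the notes is hg38, of human, while gene identifiers are those of mouse Ensembl genes. Of these, 51957 of 55401 genes (93.8%), and 30 of the 33 members, had the start and end of GENCODE M21, so coordinates are read as GRCm38. Per the file headers, the authors deposited FPKM, scaled to transcript length and library size, and an estimated count for each gene. The deposited estimated counts are whole numbers, not normalized by the authors, and pile up at multiples of 4 (a mean of 907 genes per library at a count of 4, against 330.5 at 3). A count is therefore not taken as 1 read, and the totals are not read depths.

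Genes whose FPKM averaged 0.5 or more over the 10 libraries, and Map3k14, were tested with edgeR 4.0.16 in R 4.3.3 (TMM scaling, quasi-likelihood test, two-sided, genotype as the only term, Benjamini-Hochberg adjustment over all genes tested, called below 0.05). Standard errors are the log2 fold change over the square root of F, and 95% intervals use the t distribution. Alternatives were DESeq2 1.42.0, limma 3.58.1 on log2(FPKM + 1) and log2(FPKM + 0.1), other filters and scalings, counts divided by 4, a replicate block, and left-out libraries. Sums of counts over overlapping or near-identical entries were added after seeing the data. The members and lists were chosen with earlier results of these data known. Values in every library were to be given for members called or without overlap (there were 0), Ppara, the member with the smallest p in each role, Cpt1b, Acaa1a and Acaa1b, and the 3 other pathway genes with the smallest p; Acsl1, Cpt1a, Angptl4 and Vnn1 were added after their values were seen. Promoter windows are those of RefSeq on GRCm38.p6, with 26 of 33 members matched.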

Additional observations from a re-analysis of the deposited data

Results flagged for a closer look

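Among 80 groups of 5 values examined for a library far from the rest, of which chance flags about 1 in 20, 2 were marked. Pdk4 in NIKflox 2, at 9.27 FPKM, lay far above the other NIKflox livers (2.74 to 3.95 FPKM), and its log2 fold change was 0.17 without that library, against -0.26 with it. Map3k14 in NIKflox 4, at 0.899 FPKM, lay above the other NIKflox livers (0.483 to 0.585 FPKM), and its log2 fold change was -0.42 without that library.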

How the results depend on the processing

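Across 21 alternatives, 14 of the 33 genes kept the sign of their log2 fold change and 19 changed it under at least 1. DESeq2 called 207 of all genes, 1 of the 33 (Crat) and 3 of the 48 other pathway genes, limma called 0 genes with either pseudocount (1375 and 1365 at an unadjusted p below 0.05), edgeR with robust shrinkage called 6 genes, and the fit without NIKflox 2 and 4 called 1. With each library left out in turn, all genes called numbered 0 to 24 (24 without NIKhKO 4), the 33 had 14 to 25 positive values with a median between -0.03 and 0.12, and 0 were called. Without NIKflox 2 and 4 there were 31 positive values with a median of 0.20. The cause of these differences was not tested.

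Replicate numbers did not pair the samples (correlations of same-numbered deviations 0.01, -0.13, 0.02, -0.25 and 0.05, and none of the 5 NIKhKO libraries closest to its own number). With the replicate block 2 genes and 0 of the 33 were called, with 21 positive values and a median of 0.03, and Ppara, Ehhadh and Angptl4 changed sign, to 0.00038, 0.0067 and 0.021.

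The other sign changes were these. Ppara was 0.0055 with RLE size factors, 0.0081 without a filter, 0.0045 at a mean FPKM of at least 1, 0.012 with filterByExpr and 0.0054 with DESeq2. Etfdh was 0.0013, 0.0039, 0.00075, 0.0073 and 0.0012 under the same settings. With limma, at pseudocounts of 1 and 0.1, the values were Slc25a20 -0.022 and -0.022, Acads -0.031 and -0.032, Decr1 -0.016 and -0.016, and Pex11a -0.048 and -0.051. Without NIKflox 2 and 4 the sign changed for Ppara (0.13), Creb3l3 (0.060), Cpt1b (0.19), Cpt2 (0.025), Hadha (0.033), Hadhb (0.24), Acaa2 (0.0065), Eci2 (0.11), Etfdh (0.13), Ehhadh (0.20), Hsd17b4 (0.054), Pdk4 (0.22) and Angptl4 (0.69). With single libraries left out, the ranges that crossed 0 were -0.12 to 0.097 for Ppara, -0.021 to 0.16 for Slc25a20, -0.13 to 0.016 for Acadvl, -0.068 to 0.12 for Acads, -0.13 to 0.089 for Hadhb, -0.039 to 0.011 for Acaa2, -0.12 to 0.034 for Eci2, -0.026 to 0.12 for Decr1, -0.055 to 0.058 for Etfdh, -0.15 to 0.065 for Ehhadh, -0.065 to 0.017 for Hsd17b4, -0.069 to 0.14 for Pex11a, -0.46 to 0.17 for Pdk4, -0.010 to 0.27 for Vnn1 and -0.47 to 0.12 for Angptl4.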
